A study of Mus musculus with 6 samples.

Results

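The genes described here are 6 digestive proteases of the pancreatic acinar cell and 1 inhibitor of trypsin: Cpa1, Cpb1, Ctrb1, Ctrl, Cela1, Prss2 and Spink1. A probe was taken as a member where the platform annotation gave it 1 of these symbols and no other, which held for 24 of the 21888 probes in the deposited table. The 7 genes were among 11023 symbols that the annotation pairs with a probe of their own. Ctrb1 had 10 of these probes, Cpa1, Cpb1 and Ctrl had 3 each, Cela1 and Spink1 had 2 each, and Prss2 had 1. Of the 24 probes, 23 had a value on at least 4 arrays and were tested. The remaining Ctrl probe, ZX-00124D02, had only 2 usable values, 0.86 on array 3 and 0.27 on array 6, and was at the ceiling of the scale on array 5.

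Acinar cells store their proteases as inactive precursors. Trypsinogen, of which Prss2 encodes a form, is cut to trypsin in the gut, and trypsin then activates the chymotrypsinogens, proelastases and procarboxypeptidases. Spink1, called Spink3 in older mouse annotation, binds trypsin that becomes active too early inside the pancreas. In the mouse embryo Cpa1 is made before acinar cells mature, by progenitor cells at the tips of the branching epithelium.

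The study set pancreas RNA of Sox4-/- mouse embryos against that of their Sox4 wild-type littermates, both taken at embryonic day 12.5. Sox4 encodes a SoxC transcription factor, and the knockout mice are described as homozygous mutants, with no Cre line named. All 6 arrays carried both RNAs, the knockout RNA in channel 2 and the wild-type RNA in channel 1. The labels of arrays 1 and 2 say that embryonic pancreases were pooled into 2 groups before RNA was isolated, so the arrays may be repeat hybridisations of 1 knockout pool and 1 wild-type pool, and every p-value below is then a statement about these pools and the spread between arrays.

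Each value is a log2 ratio from which the median of its array was subtracted, and it is read as knockout over wild type. That direction is likely rather than certain, because it rests on the channel order and the sample titles. A value under 0 therefore means a lower signal in the RNA labelled knockout. The 2 Sox4 probes, at -0.03 and -0.09 with adjusted p of 0.892 and 0.446, do not settle the direction, and where they lie relative to the deleted sequence was not looked at. Each RNA kept its channel on every array, so a probe that favours one channel cannot be told apart from one whose RNA differs. Between 439 and 1654 probes had no value on an array, and the number of arrays limits the precision. Arrays 1 and 2 resembled each other (Spearman's rho across probes 0.52), as did arrays 3 to 6 (0.44 to 0.58), and these sets resembled one another less (0.05 to 0.32). Means within each set are therefore given for each member gene. The table holds ratios and no intensities, so levels of pancreas markers could not be read. The ratios of the measured markers were -0.16, 0.05 and 0.10 for Pdx1, 0.20 for Ptf1a, and -0.73 and -0.32 for Neurog3.

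Promoter windows from RefSeq (GRCm38.p6), from 250 bases before to 50 bases after the start of the gene, were read for 6 of the 7 genes. Those of 3 genes, chosen after their ratios were seen, are shown: Cpa1, whose 3 probes were all past the threshold under 0, Cela1, whose 2 probes had means under 0, and Prss2, the one protease whose only probe had a mean above 0. The Cpa1 window lies at chr6:30638968-30639267 on the plus strand, that of Cela1 at chr15:100687871-100688170 on the minus strand and that of Prss2 at chr6:41521526-41521825 on the plus strand. In the same build the genes Cpb1, Ctrb1 and Ctrl, whose windows are not shown, lie at chr3:20249479-20275733, chr8:111686510-111691010 and chr8:105931994-105933862. Sequences run 5′ to 3′ along the gene, and capitals mark matches on either strand to the E-box CANNTG, to TTTCCC, to TGGGAA or to the Sox-type cores ACAAAG and AACAAT.
Cpa1: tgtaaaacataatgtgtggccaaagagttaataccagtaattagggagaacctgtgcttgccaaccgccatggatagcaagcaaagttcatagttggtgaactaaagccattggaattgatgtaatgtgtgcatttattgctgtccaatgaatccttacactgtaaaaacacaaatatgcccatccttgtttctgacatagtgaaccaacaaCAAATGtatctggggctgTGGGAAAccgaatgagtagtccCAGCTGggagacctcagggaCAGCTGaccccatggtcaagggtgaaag
Cela1: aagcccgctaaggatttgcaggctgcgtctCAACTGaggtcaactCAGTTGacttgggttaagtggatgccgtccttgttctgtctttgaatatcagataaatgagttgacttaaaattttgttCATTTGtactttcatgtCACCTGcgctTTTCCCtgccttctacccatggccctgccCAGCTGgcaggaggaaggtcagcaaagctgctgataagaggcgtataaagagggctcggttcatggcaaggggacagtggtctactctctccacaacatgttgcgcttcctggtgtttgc
Prss2: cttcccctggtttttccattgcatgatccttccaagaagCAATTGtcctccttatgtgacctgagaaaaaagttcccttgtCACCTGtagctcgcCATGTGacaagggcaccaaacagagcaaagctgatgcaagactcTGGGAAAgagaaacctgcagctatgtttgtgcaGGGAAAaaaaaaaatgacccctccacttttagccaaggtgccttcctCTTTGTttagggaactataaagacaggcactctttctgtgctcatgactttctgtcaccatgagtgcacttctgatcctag
The E-box and a TTTCCC box are the parts of the bipartite element bound by PTF1, the acinar complex built on Ptf1a. An E-box was found in all 6 windows read and in 72.3% of the 32851 windows of the same length in the table. Its more specific form CACCTG was found in Cela1, Prss2, Cpb1 and Ctrl, and in 20.2% of all windows. TTTCCC was found in Cpa1, Cela1, Prss2 and Ctrb1 and in 25.2% of all windows. TGGGAA, which overlaps the TTTCCC match on the opposite strand in the Cpa1, Prss2 and Ctrb1 windows, was found in Cpa1, Prss2, Ctrb1 and Ctrl and in 25.6% of all. The start of a TTTCCC match lay 10 bases from that of an E-box in Cela1 and in Ctrb1, 19 bases in Cpa1 and 45 bases in Prss2. A distance of at most 25 bases, a limit chosen after these values were seen, occurred in 4.96% of all windows. ACAAAG was found in the Prss2 window alone among the 6, and in 18.7% of all, and AACAAT in none of the 6 and in 10.7% of all. These are matches of letters, and no binding was measured.

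Of the 23 tested probes, 18 had a mean ratio under 0 and 5 a mean above 0, and 4 were past an adjusted p of 0.05, all under 0. At an unadjusted limma p under 0.05 there were 10, all under 0, a cut that 27.6% of all tested probes passed, 14.0% with a mean under 0. Of the 4 past the adjusted threshold, 3 were the Cpa1 probes and the other was a Spink1 probe. Among all 21247 tested probes, 5.49% were past the same threshold, 3.53% under 0 and 1.96% above 0, and 46.3% had a mean under 0. The 4 members called made up 17.4% of the members tested, and since 3 of them belong to 1 gene this share does not describe the proteases as a group. The median over the member probes was -0.19, against 0.026 over all tested probes. On source plates ZX-00125, ZX-00126, ZX-00128 and ZX-00129 the median was -0.08 to -0.06, and 6.02% to 8.33% of probes were called under 0. On the other plates with members these were 0.02 to 0.12 and 2.65% to 4.17%. With each plate centred, 6 members had an unadjusted limma p under 0.05, as did 5732 of all 21247 probes. Every measured array was under 0 for 8 of the 23 member probes, and for 12.3% of all probes. The test was limma's moderated test of each probe's mean against 0, adjusted by the Benjamini-Hochberg method over all tested probes. Over all probes, 35.7% of the calls were above 0, and this share rose to 67.5% without centring the arrays and to 72.6% with quantile normalisation, while the called members were under 0 under both settings.

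**Figure D1:**
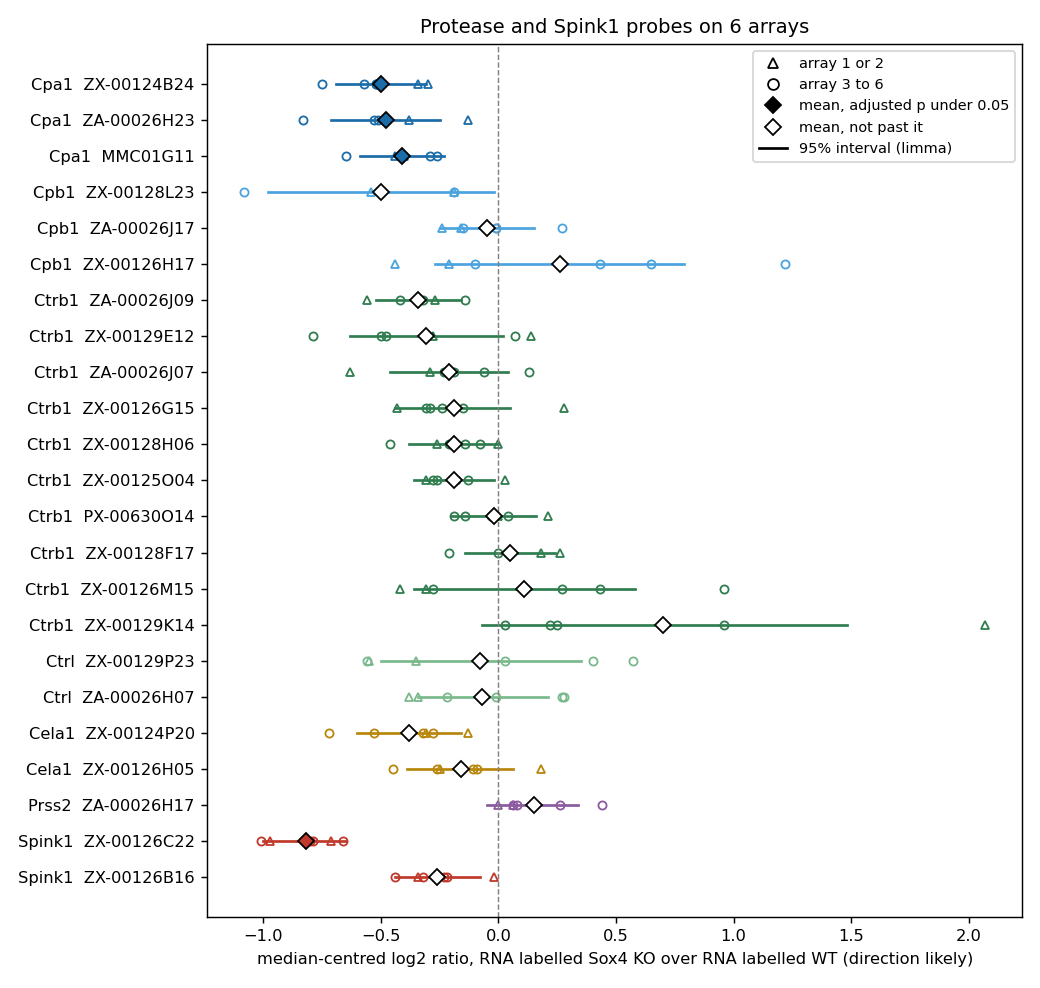
Log2 ratio (horizontal axis) of the 23 tested probes of the 6 proteases and Spink1 (vertical axis). Open triangles are arrays 1 and 2, open circles arrays 3 to 6, diamonds the means over arrays (filled where the adjusted p is under 0.05) and bars the 95% intervals from limma. The 3 Cpa1 probes lie between -0.83 and -0.13 on every array, the Spink1 probe ZX-00126C22 lies between -1.01 and -0.66, and the Ctrb1 probes spread to both sides of 0.

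Cpa1, a metallocarboxypeptidase that removes aromatic and aliphatic residues from the carboxyl end of peptides, was lower in the RNA labelled knockout at each of its 3 probes. Probe ZX-00124B24 read -0.30, -0.34, -0.75, -0.52, -0.57 and -0.52 on arrays 1 to 6, a mean of -0.50 ± 0.16 (SD, n = 6 arrays), which is 1.41-fold lower with a limma adjusted p of 0.0315. Probe ZA-00026H23 read -0.38, -0.13, -0.83, -0.53, -0.51 and -0.49, a mean of -0.48 ± 0.23 with an adjusted p of 0.0448. Probe MMC01G11 read -0.40, -0.44, -0.41, -0.29, -0.65 and -0.26, a mean of -0.41 ± 0.14 with an adjusted p of 0.0371. All 18 readings were under 0, and array 3 was the lowest at the first 2 of these probes and array 5 at the remaining one. The annotation gives the first and the last probe the same cDNA, so they are not independent views of the transcript, while ZA-00026H23 has a cDNA entry of its own. The 3 means differed from each other by 0.02 to 0.09, within the spread of the arrays (exact sign-flip permutation tests, smallest unadjusted p 0.312).

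The mean over the Cpa1 probes was -0.33 on arrays 1 and 2 and -0.53 on arrays 3 to 6, and on all 6 arrays it was -0.46 with a 95% interval of -0.63 to -0.29. In the fit of 1 mean per gene, Cpa1 had an adjusted p of 0.0277, and of the 10818 genes 5.82% were past the threshold, 3.47% under 0 and 2.36% above 0. Without centring, ZA-00026H23 and MMC01G11 lost their calls (limma adjusted p 0.0597 and 0.0544), and with quantile normalization ZA-00026H23 did (0.0604). With each source plate centred, ZX-00124B24 (0.0578), MMC01G11 (0.102) and the gene mean (0.0561) lost theirs. On arrays 3 to 6 alone the gene mean had an adjusted p of 0.0733, and on arrays 1 and 2 alone 0.352. Leaving out array 1, 3, 4, 5 or 6 ended the call of each Cpa1 probe, and leaving out array 2 ended that of MMC01G11 alone. The means without 1 array stayed between -0.55 and -0.36, and their unadjusted p between 0.000741 and 0.00769. In these bulk ratios, fewer cells of a type and less RNA in each cell cannot be told apart.

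Cpb1, a carboxypeptidase that prefers basic residues, had 3 probes that did not pass the threshold and lay on both sides of 0. Probe ZX-00128L23, measured on 4 arrays, read -0.54, -0.19, -0.19 and -1.08 on arrays 1, 2, 3 and 5, a mean of -0.50 ± 0.42 (adjusted p 0.17). Probe ZA-00026J17 read -0.16, -0.24, 0.27, -0.01, -0.01 and -0.15, a mean of -0.05 ± 0.18 with a 95% interval of -0.25 to 0.15. Probe ZX-00126H17 read -0.44, -0.21, -0.10, 0.43, 1.22 and 0.65, a mean of 0.26 ± 0.62. Arrays 1 and 2 were under 0 at all 3 probes, and the arrays above 0 at ZX-00126H17 were 4, 5 and 6. The mean over probes was -0.02 (95% interval -0.25 to 0.22), with -0.30 on arrays 1 and 2 and 0.12 on arrays 3 to 6. It was 0.10 over the 2 probes present on every array, so its sign depends on the probe that was missing on arrays 4 and 6.

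Ctrb1 encodes chymotrypsinogen B, whose active form cuts after aromatic residues, and its 10 tested probes ranged in mean from -0.34 to 0.70, 7 under 0 and 3 above. The lowest, ZA-00026J09, read -0.27, -0.56, -0.14, -0.32, -0.34 and -0.42, a mean of -0.34 ± 0.14 with an adjusted p of 0.0507. All 6 of its arrays were under 0, and it was just short of the threshold. The next, ZX-00129E12, was at -0.31 ± 0.36, with array 1 at 0.14 and array 6 at 0.07. ZA-00026J07 was at -0.21 ± 0.25, and ZX-00126G15, ZX-00128H06 and ZX-00125O04 were at -0.19 each, with an SD of 0.25, 0.16 and 0.13. Each of these 4 probes had 5 arrays under 0, and array 2 was their highest except at ZA-00026J07, where array 3 was. Probe PX-00630O14 was at -0.02 ± 0.14 and ZX-00128F17 at 0.05 ± 0.16.

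The highest Ctrb1 probes also had the widest spread. ZX-00126M15 read -0.31, -0.42, 0.96, -0.28, 0.43 and 0.27, a mean of 0.11 ± 0.54. ZX-00129K14 read 2.07 on array 1 and 0.22, 0.03, 0.25 and 0.96 on arrays 3 to 6, a mean of 0.70 ± 0.84 (n = 5, adjusted p 0.214), with array 2 at the ceiling and treated as missing. Of its usable ratios, 60% were quotients of whole numbers up to 20, which ratios of very low intensities can give, and it was the only tested member where such values were the majority, as they were at 12% of all tested probes. The mean over the Ctrb1 probes was -0.07 with a 95% interval of -0.22 to 0.07, at -0.04 on arrays 1 and 2 and -0.09 on arrays 3 to 6. Among the 45 pairs of Ctrb1 probes, 3 differed at an exact unadjusted p of 0.0312, the smallest that 6 arrays allow, and none after adjustment over the 54 pairs of all members (smallest adjusted p 0.211). Most of the 54 pairs would have had to reach 0.0312 for any to pass. The adjusted p therefore does not show that probes of a gene agree.

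Ctrl encodes a chymotrypsin-like protease, and its 2 tested probes split by array rather than by probe. ZX-00129P23 read -0.35, -0.55, -0.56, 0.03, 0.57 and 0.40, and ZA-00026H07 read -0.38, -0.34, -0.22, -0.01, 0.27 and 0.28. Both were under 0 on arrays 1 to 3 and above 0 on arrays 5 and 6. Their means were -0.08 ± 0.49 and -0.07 ± 0.30, with adjusted p of 0.808 and 0.746. The gene mean was -0.41 on arrays 1 and 2 and 0.10 on arrays 3 to 6 with a 95% interval over all arrays of -0.42 to 0.27. A term for the array set, tested for every probe, reached an adjusted p of 0.331 at ZA-00026H07 and 0.409 at ZX-00129P23. It was past the threshold at 0 of the 23 members and 0.0% of 21230 probes (limma), and at an unadjusted p under 0.05 at 1 member, the Ctrb1 probe ZX-00129K14.

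Cela1, a pancreatic elastase that cuts after small residues, had both probe means under 0 and neither past the threshold. ZX-00124P20 read -0.31, -0.13, -0.72, -0.53, -0.28 and -0.32, a mean of -0.38 ± 0.21 with an adjusted p of 0.0607. ZX-00126H05 read -0.25, 0.18, -0.45, -0.26, -0.11 and -0.09, a mean of -0.16 ± 0.21 with an adjusted p of 0.294. The first was under 0 on all 6 arrays and the second on 5, and array 3 was the lowest and array 2 the highest at both. The probes differed by 0.22 ± 0.09 in the same direction on 6 of 6 arrays (exact p 0.0312, the smallest possible, adjusted 0.211). As for Ctrb1, this adjusted p does not show that the probes agree. The gene mean was -0.27, with a 95% interval of -0.48 to -0.06 and an adjusted p of 0.116. It was -0.13 on arrays 1 and 2 and -0.34 on arrays 3 to 6.

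Prss2, a trypsinogen, was measured by a single probe, ZA-00026H17, which read 0.00, 0.06, 0.06, 0.08, 0.26 and 0.44. No array was under 0, and arrays 5 and 6 were the highest, with means of 0.03 on arrays 1 and 2 and 0.21 on arrays 3 to 6. Its mean was 0.15 ± 0.17 (SD, n = 6) with a 95% interval of -0.05 to 0.34 and an adjusted p of 0.279. The interval does not reach the mean of any Cpa1 or Spink1 probe. Trypsinogens are a family of near-identical genes, and a spotted cDNA probe can hybridise with several of them, so this value is uncertain as a measure of Prss2 alone.

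Spink1 had both probes under 0 on all 6 arrays, at different sizes. Probe ZX-00126C22 read -0.97, -0.71, -1.01, -0.79, -0.66 and -0.80, a mean of -0.82 ± 0.14 (SD, n = 6), which is 1.77-fold lower in the RNA labelled knockout with a limma adjusted p of 0.0126. Probe ZX-00126B16 read -0.34, -0.02, -0.23, -0.44, -0.22 and -0.32, a mean of -0.26 ± 0.14 with an adjusted p of 0.0906. The highest reading of the first probe, -0.66, lay below the lowest of the second, -0.44. They differed by 0.56 ± 0.17 and in the same direction on 6 of 6 arrays (exact p 0.0312, the smallest possible, and 0.211 adjusted over the 54 pairs). That adjusted p does not show that the probes agree, since most of the 54 pairs would have had to reach 0.0312 for any to pass. Both come from source plate ZX-00126 by their names, where the median mean over 384 tested probes was -0.08 and 8.33% of probes were past the threshold under 0.

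The Spink1 gene mean was -0.54 (95% interval -0.70 to -0.38, adjusted p 0.0208), at -0.51 on arrays 1 and 2 and -0.56 on arrays 3 to 6. Leaving out array 1, 4, 5 or 6 ended the call of ZX-00126C22, with means from -0.86 to -0.79 and adjusted p from 0.028 to 0.0783 over the 6 fits. The same omissions and that of array 3 ended the call of the gene mean. On arrays 3 to 6 alone the gene mean had a limma adjusted p of 0.0733, and on arrays 1 and 2 alone 0.316.

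**Figure D2:**
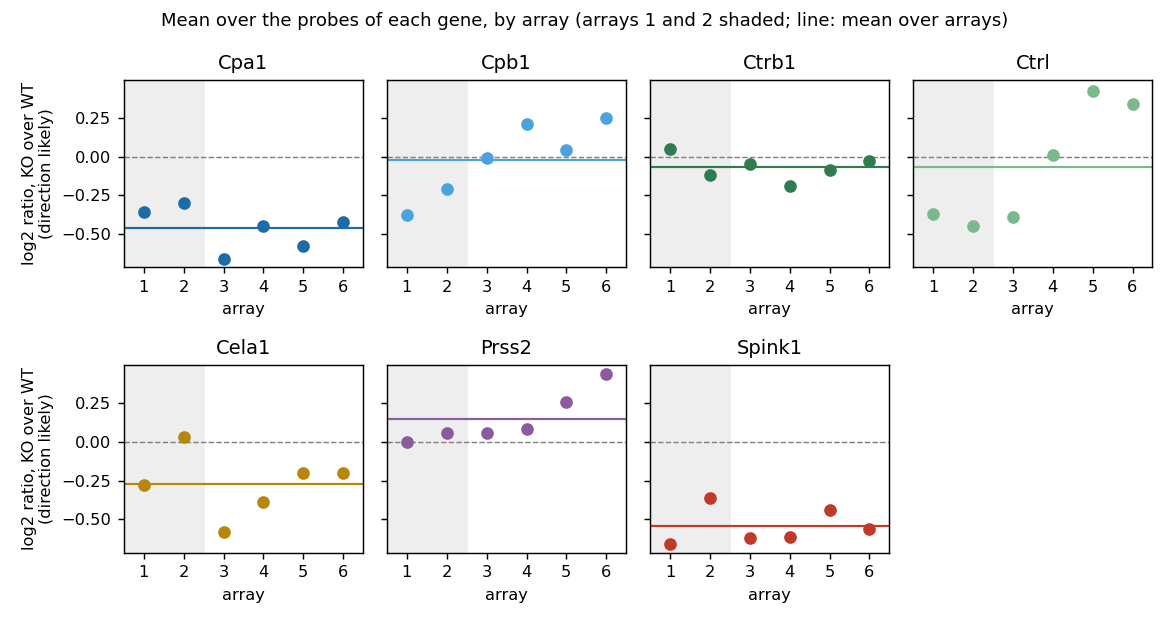
Mean log2 ratio over the tested probes of each gene (vertical axis) on arrays 1 to 6 (horizontal axis), 1 panel for each gene, with the mean over arrays as a line and arrays 1 and 2 shaded. Cpa1 and Spink1 were under 0 on every array, at -0.66 to -0.30 and -0.66 to -0.36, while Ctrl ran from -0.45 on array 2 to 0.42 on array 5.

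In order of the gene means, Spink1 was at -0.54, Cpa1 at -0.46, Cela1 at -0.27, Ctrb1 and Ctrl at -0.07, Cpb1 at -0.02 and Prss2 at 0.15. The Ctrb1 value, here and in the differences below, includes probe ZX-00129K14, and was -0.14 without it. Of these 7 genes, Cpa1 and Spink1 passed the threshold in the fit on gene means. Spink1 was compared with each protease by the difference between their gene means on each array, with an exact two-sided sign-flip permutation test over 6 arrays and adjustment over the 6 pairs. Spink1 was lower than Prss2 by a mean difference of -0.69 ± 0.18, than Cpb1 by -0.53 ± 0.28, than Ctrb1 by -0.47 ± 0.17 and than Cela1 by -0.27 ± 0.13. Each of these 4 differences had the same sign on 6 of 6 arrays and an exact adjusted p of 0.0468, which rests on the smallest p that 6 arrays can give, 0.0312. Against Ctrl the difference was -0.47 ± 0.39, negative on 5 arrays (exact adjusted p 0.075). Against Cpa1 it was -0.08 ± 0.15, from -0.30 to 0.14 and negative on 4 arrays (exact adjusted p 0.281).

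These differences depend on the Spink1 probe. With ZX-00126C22 alone all 6 differences, from -0.97 against Prss2 to -0.36 against Cpa1, had an exact adjusted p of 0.0312. With ZX-00126B16 alone none passed after adjustment. The difference was then -0.41 against Prss2 (exact sign-flip p 0.0312, adjusted 0.0936), -0.24 against Cpb1 and -0.19 against Ctrb1. It was 0.20 against Cpa1 and 0.01 against Cela1. With any 1 array left out, 5 arrays cannot reach the threshold, and the differences kept their signs.

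**Figure D3:**
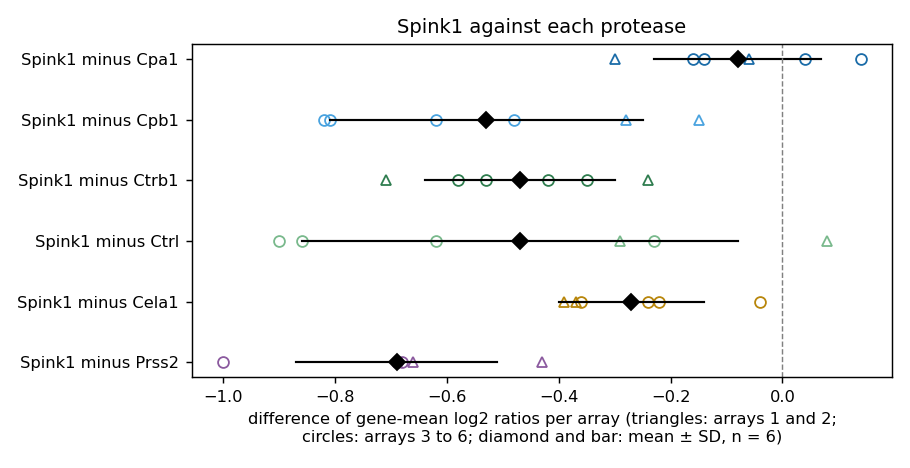
Difference between the Spink1 gene mean and that of each protease (vertical axis) in log2 ratio (horizontal axis), with arrays 1 and 2 as triangles, arrays 3 to 6 as circles, and the mean ± SD over 6 arrays as diamonds with bars. All 6 arrays lie under 0 against Prss2, Cpb1, Ctrb1 and Cela1, and the arrays lie on both sides of 0 against Cpa1 and Ctrl.

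The other pancreatic proteases on the array did not pass the threshold at any of 15 probes of 6 measured genes, and 2 of the 15 had an unadjusted limma p under 0.05, against 27.6% of all probes. These were on opposite sides of 0, 2210010C04Rik at -0.26 and Klk1, a kallikrein, at 0.72. Their gene means ran from -0.13 to 0.72 with a median of 0.13, beside a median of 0.04 over all 10818 genes. The trypsinogen Try4 had probes at -0.22, 0.12 and 0.29, the gene 2210010C04Rik had 5 probes from -0.26 to 0.08, and Cela3b, an elastase relative, had 4 probes from -0.11 to 0.44. Ctrc, chymotrypsin C, was at 0.18 ± 0.42. Among other metallocarboxypeptidases, 1 of 7 measured genes was past the threshold, under 0: Cpa5, a relative of Cpa1, at -0.58 ± 0.13 (adjusted p 0.0237), with -0.36, -0.71, -0.71, -0.54, -0.61 and -0.53 on the 6 arrays. Over all genes, 5.0% had a probe past the threshold under 0 and 3.25% above 0.

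Among 9 measured genes for other protease inhibitors, 2 passed, both under 0. Serpina1e, of the alpha-1-antitrypsin family, was at -1.14 ± 0.16 (adjusted p 0.00597), and Ambp, whose product is cut into a Kunitz-type inhibitor, was at -0.77 ± 0.10 (adjusted p 0.0126). Both are made mainly by the liver. The inhibitors closest to Spink1 by family, Spink2 and Spink5, had gene means of -0.20 and -0.03. No gene of the 3 measured for lysosomal proteases and trypsin signalling passed in limma, although all 7 probes had an unadjusted p under 0.05, as did 27.6% of all probes. Only 1 of these 7 had a mean above 0, a probe of Ctsc, a protease that activates other proteases, at 0.40. The other Ctsc probe was at -0.38, and Cckar, a cholecystokinin receptor, was at -0.17. All 3 gene means were under 0. The smallest p belonged to Ctsl, a lysosomal protease that can cut trypsinogen, at -0.37, -0.30, -0.28 and -0.26 at its 4 probes.

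Of 4 measured lipase and amylase genes, Clps and Pla2g1b had probes past the threshold, under 0. Clps, the colipase, passed at 7 of 9 probes, from -0.90 to -0.59, and its other probes were at 0.02 and 0.12. Pla2g1b, a phospholipase, passed at 1 of 10 probes, at -0.39 ± 0.16, and its other probes ran from -0.19 to 0.26. The gene means were -0.59 for Clps and -0.04 for Pla2g1b, and the list median was -0.04. None of 10 other acinar secretory genes passed in limma. Of their 20 probes, 4 had an unadjusted p under 0.05, all with a mean under 0. Among all probes 27.6% had such a p, 14.0% with a mean under 0. The gene means ran from -0.52 for Pdia2 to 0.27 for Reg3g. The smallest p belonged to Zg16, a granule protein, at -0.29 ± 0.11 (adjusted p 0.0583). Among 5 acinar transcription factors, 1 passed, under 0: Nr5a2, which drives acinar enzyme genes, at -0.91 ± 0.36 (limma adjusted p 0.0302). Its only probe averaged -0.49 on arrays 1 and 2 and -1.12 on arrays 3 to 6. Ptf1a was at 0.20 ± 0.11 with an adjusted p of 0.127. The gene means of Tcf3, Rbpj and Bhlha15 were 0.61, 0.22 and -0.05, and the list median was 0.20.

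Liver markers, of which Ambp is one, had gene means under 0 for 9 of 9 measured genes, as did 4645 of all 10818 genes. The median of the liver markers was -0.64 and ranged over arrays from -0.81 to -0.49. The highest, Rbp4 at -0.08, had probes at -0.24 and 0.49, each measured on 5 arrays. Of the 9, 6 had a probe past the threshold under 0, led by Afp with 3 of its 4 probes from -2.06 to -1.90 and the other at 0.01. Their part in the Cpa1 and Spink1 ratios was not tested. Markers of stomach and intestine (7 genes, median 0.01), mesenchyme (6 genes, -0.01) and erythroid cells (4 genes, -0.01) had medians near 0, and the 3 leukocyte markers had a median of -0.13. Of these, Sparc of the mesenchyme list and C1qa of the leukocyte list passed under 0, and Cd53 and 1 probe of Hba-a1 passed above 0.

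**Figure D4:**
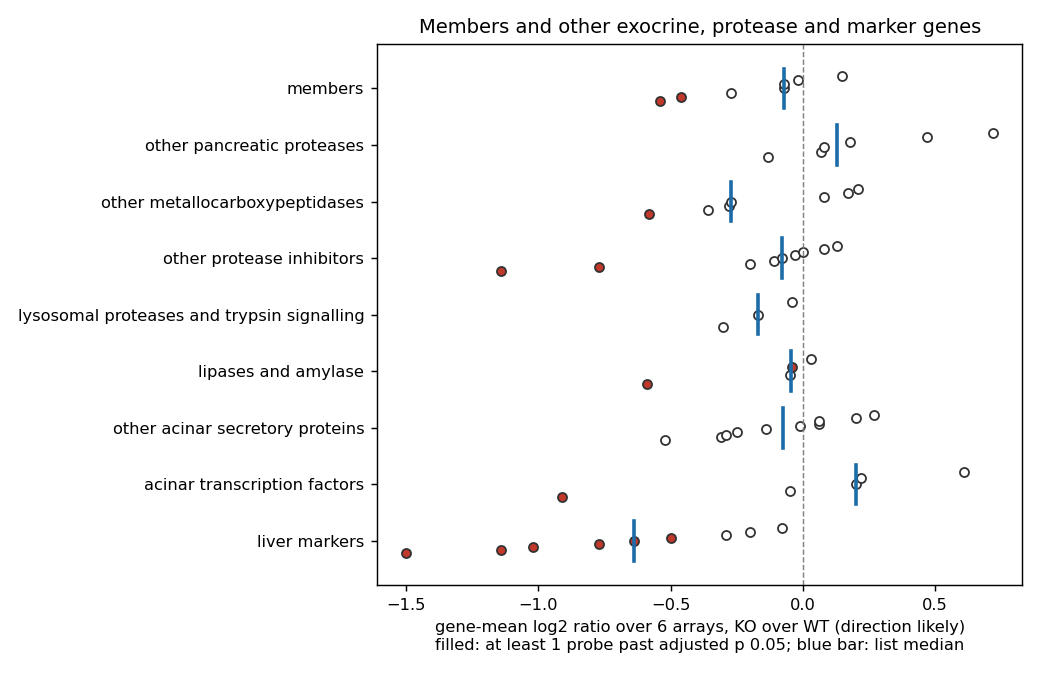
Gene means in log2 ratio (horizontal axis) for the 7 members, for each list of related genes and for liver markers (vertical axis). Each circle is a gene, filled where at least 1 probe was past an adjusted p of 0.05, and the blue bar is the list median. All filled genes lie under 0, some lists have no filled gene, and the median of the 9 liver markers is at -0.64.

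The genes most like Cpa1 across the 6 arrays, by the root mean square difference between gene means among 9722 genes measured on all arrays, were Etfrf1 (0.047), Isoc1 (0.052) and Ifih1 (0.063). Those most like Spink1 were Rabggtb (0.079), Clps (0.09) and Hprt (0.101). As gene means, Spink1 read -0.66, -0.36, -0.62, -0.61, -0.44 and -0.56 on the 6 arrays. Rabggtb read -0.53, -0.27, -0.64, -0.52, -0.51 and -0.55, and Clps read -0.54, -0.44, -0.65, -0.70, -0.50 and -0.69. The Spink1 and Clps values average probes that differed, with means of -0.82 and -0.26 for Spink1 and from -0.90 to 0.12 for Clps.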

How the data were processed

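Two-channel spotted arrays compared RNA labelled Sox4 knockout with RNA labelled wild type from pancreas at embryonic day 12.5, in 6 arrays of 1 comparison. Per the labels of arrays 1 and 2, RNA was amplified linearly and labelled indirectly. The deposited values are log2 ratios, a base read from the ceiling of 16.61, which is log2 of 1e+05. The scanner, any background correction or scaling, the dyes and the sign convention could not be read from the labels.

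Ceiling values were treated as missing, each array was centred on its median (deposited medians -0.006 to 0.203), and probes with at least 4 arrays were kept. Platform symbols were updated through Entrez IDs and RefSeq for 17786 of 18388 probes with 1 symbol, while 66 had several and 3434 none. Ratios were tested with limma 3.58.1 in R 4.3.3 (lmFit, eBayes, two-sided, Benjamini-Hochberg over all probes, threshold 0.05), also on the mean over probes per gene. The fit was tested on simulated data. Differences between genes or probes used exact sign-flip permutation tests over arrays. Figures used matplotlib 3.10.9.

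All member probes are named, with up to 4 genes past the threshold per list, or the one with the smallest p. Family relatives, marker genes and the probes shown to lie near the threshold were named beyond that rule, after their values were seen. Members and lists were chosen with earlier results of these data known. Alternatives covered centring, scaling, quantile normalization, missing values, the ceiling, array weights, robust eBayes, array sets, low-quotient probes, source plates (added after seeing the data) and each array left out.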

Additional observations from a re-analysis of the deposited data

Results flagged for a closer look

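Each named probe, gene mean and difference was checked for 1 array far from the other arrays, relative to their whole range. Of 51 checked, 3 had such an array, and chance alone gives about 1 in 20. None was a probe, gene mean or difference of the 6 proteases or Spink1. For Clps, ZX-00129I19 read -0.42 on array 3 while the remaining arrays read -1.15 to -0.89. Its other such probe, ZX-00129G15, read -0.21 on array 2 and between -0.92 and -0.70 elsewhere. Zg16 probe ZX-00125C11 read -0.08 on array 4 and between -0.42 and -0.30 elsewhere.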

How the results depend on the processing

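The main settings gave 1166 probes past the threshold in all, 4 member probes under 0, 0 above 0 and 2 member genes by gene means. Without 1 array these numbers ran from 6 to 810, 0 to 3, 0 to 0 and 0 to 2. All probes past the threshold numbered 1786 with scaled arrays, 1789 with quantile normalization, 2752 with array weights, 11 on arrays 3 to 6 alone and 0 on arrays 1 and 2 alone, where 6393 and 2953 (10 and 1 of them members) had an unadjusted limma p under 0.05. Member probes under 0 numbered 2 without centring, 7 with array weights, 0 in either array set alone and 2 with each source plate centred. Member genes numbered 3 with array weights, where the Cela1 gene mean also passed (limma adjusted p 0.0407), and 0 in either array set alone. With each plate centred they numbered 1, Spink1, and the Cpa1 gene mean was -0.47 (adjusted p 0.0561). With the array set as a term, 1 member probe passed above 0, the Ctrb1 probe ZX-00129K14 at 0.93. The Ctrb1 probe ZA-00026J09, just short of the threshold here, passed under 6 alternatives, with adjusted p from 0.021 to 0.049.

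Some uncalled means and 2 of the differences from Spink1 changed sign. Without centring, which moved the median probe by 0.10, Cpb1 ZA-00026J17 was at 0.05, Ctrb1 PX-00630O14 at 0.09, Ctrl ZX-00129P23 at 0.03 and ZA-00026H07 at 0.04, and the gene means were 0.09 for Cpb1, 0.03 for Ctrb1 and 0.03 for Ctrl. Quantile normalization gave 0.05, 0.08, 0.04 and 0.04, with 0.09, 0.02 and 0.04. Array weights gave 0.07 and 0.02 at the Ctrl probes, with 0.07 for Cpb1 and 0.04 for Ctrl. On arrays 3 to 6 alone, Cpb1 ZA-00026J17 was at 0.02, Ctrb1 ZX-00128F17 at -0.03, the Ctrl probes at 0.11 and 0.08, and the Cpb1 and Ctrl means at 0.12 and 0.19, the Ctrl mean with probe ZX-00124D02 included. On arrays 1 and 2 alone, Cpb1 ZX-00126H17 was at -0.32, Ctrb1 PX-00630O14 at 0.11 and ZX-00126M15 at -0.37. The Cpb1 mean was 0.10 with values on all 6 arrays required and 0.04 with plates centred, where Ctrl ZX-00129P23 was at 0.02. The Ctrb1 mean was 0.20 with the ceiling kept. With Spink1 ZX-00126B16 alone the difference was 0.20 from Cpa1 and 0.01 from Cela1. Without 1 array, the range was -0.07 to 0.06 for the Cpb1 mean, -0.17 to 0.00 for the Ctrl mean, -0.21 to 0.02 for Ctrl ZX-00129P23, -0.06 to 0.02 for Ctrb1 PX-00630O14 and -0.06 to 0.22 for Ctrb1 ZX-00126M15. The cause was not tested. The test of each array's ratio against 0 already pairs both RNAs, and with 1 group of arrays no further pairing was made.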
